A study of Homo sapiens with 2 samples.

Results

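The genes described here make up the NRF2, glutathione, thioredoxin and NADPH system, which keeps the thiols of a cell reduced and removes peroxides. They were a list of 33 genes, all 33 of which were found by NCBI gene ID among the 27685 gene IDs of the tables. The list was chosen with earlier results of these data known, so its shares beside all genes are descriptions only. The cells were H1299, an established line from a human lung carcinoma of the non-small cell kind, and RNA was sequenced from 1 library of untreated cells (control) and 1 library of cells given 5 mM metformin, a biguanide drug for diabetes that acts on respiratory complex I. Both groups were the same line in the same medium, and no label says that the libraries came from more than 1 culture each. How long the drug was present was not given in the sources used here. Levels are in TPM, a transcript abundance that corrects for length and is scaled to the same total in each library, so that it is relative to all other transcripts. In RNA from a whole culture, fewer cells of a kind and less RNA per cell cannot be told apart.

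With 1 library in each group no difference has a replicate check and no test was possible. Each TPM ratio is given with an exact (Clopper-Pearson) 95% interval that covers the counting of reads only, not the variation between cultures. Depth was estimated at 28.7 M read pairs for control and at 31.7 M for metformin. A gene was called measured at 1 TPM or more in at least 1 library, which held for 14078 genes and for 30 of the 33 members. As to the identity of the cells, VIM was listed at 4378 TPM in control and 4962 with metformin, KRT8 at 269 and 521, and KRT18 at 553 and 954, whereas KRT19, EPCAM, CDH1, NKX2-1 and SFTPC were below 1 TPM in both libraries. PTPRC, PECAM1, COL1A2 and DCN, which mark blood cells, endothelium and fibroblasts, were also below 1 TPM in both libraries. KRT8 and KRT18 were higher with metformin by 1.94-fold (1.8781 to 1.9985) and 1.72-fold (1.68 to 1.77), close to the ratios of HMOX1 and NQO1 given further on, and whether the 2 pairs are linked was not tested. CD68, a lysosomal protein used as a macrophage marker, was listed at 148 and 115 TPM.

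NRF2, encoded by NFE2L2, is a transcription factor that KEAP1 marks for degradation by the proteasome as long as the cysteines of KEAP1 are unmodified. When electrophiles or oxidants modify KEAP1, NRF2 accumulates, pairs with a small MAF protein and binds the antioxidant response element of its target genes, while BACH1 occupies many of the same elements as a repressor. The targets make and recycle glutathione, recycle thioredoxin, supply NADPH and remove reactive compounds. NRF2 is controlled mainly through the stability of its protein, so its mRNA level is not a measure of its activity.

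The core of the element is TGACNNNGC on either strand, and stretches that hold it are shown for the 4 measured members with the highest ratio of metformin to control and for 4 members close to their control level or moderately above it. Each is written 5′ to 3′ on the strand of the gene, with the core, or for NQO1 and HMOX1 the core and the base next to it, in capitals. The first line is from the RefSeq promoter table (build GRCh38.p14, chr12:104286904-104286964, plus strand, 102 bases before an internal start of TXNRD1). A further core of TXNRD1, TGACTTCGC, lies 99 bases before its listed start and is not printed. The next 4 lines were read from the hg19 genome upstream of the start listed in the tables, in windows chosen after the values were seen. They lie at chr16:69760883-69760944 (minus strand, 347 bases before NQO1), chr16:83986262-83986322 (plus strand, 539 bases before OSGIN1), chr22:35773122-35773183 (plus strand, 3912 bases before HMOX1) and chr22:35767985-35768046 (plus strand, 9049 bases before HMOX1).
TXNRD1: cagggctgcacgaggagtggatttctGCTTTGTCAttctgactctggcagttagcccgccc
NQO1: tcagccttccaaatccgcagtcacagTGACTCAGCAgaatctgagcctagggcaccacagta
OSGIN1: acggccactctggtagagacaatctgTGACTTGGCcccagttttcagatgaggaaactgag
HMOX1, nearer: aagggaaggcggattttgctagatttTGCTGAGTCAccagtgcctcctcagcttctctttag
HMOX1, farther: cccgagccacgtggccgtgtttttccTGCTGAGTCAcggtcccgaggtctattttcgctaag

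The other 4 members are from the RefSeq promoter table, build GRCh38.p14. They lie at chr1:93909431-93909490 (minus strand, 34 bases before GCLM), chr11:67583720-67583780 (plus strand, 66 bases before GSTP1), chr6:83431154-83431214 (minus strand, 137 bases before ME1) and chr19:10502772-10502828 (minus strand, 31 bases before a start of KEAP1). The KEAP1 stretch holds a second core nearer its left end, left in lower case.
GCLM: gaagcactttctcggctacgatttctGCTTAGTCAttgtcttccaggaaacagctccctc
GSTP1: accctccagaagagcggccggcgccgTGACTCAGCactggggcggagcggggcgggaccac
ME1: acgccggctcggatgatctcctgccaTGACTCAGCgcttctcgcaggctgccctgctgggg
KEAP1: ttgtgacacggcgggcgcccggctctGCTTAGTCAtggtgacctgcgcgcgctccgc

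In the RefSeq windows, which run from 250 bases before to 50 bases after a start, the core TGACNNNGC was found for 6 of the 24 members with a window (KEAP1, TXNRD1, GCLM, GSTP1, PGD and ME1), or 25%, beside 16.1% of all 27305 genes with one. In the 1000 bases upstream on hg19 it was found for 13 of 33 members, or 39.4%, beside 31.7% of all genes. A longer form, the core with TCA as its inner bases and a further A after its last C (on either strand), lay in the 10000 bases upstream of GPX4, TALDO1, NQO1, HMOX1 and AKR1C1, or 15.2% of members, beside 3.66% of all genes. The GSTP1 stretch printed above also reads as this longer form, with its last A in lower case. That stretch is from a RefSeq window, and the longer form was searched only upstream of the listed hg19 starts, so GSTP1 is not in this count. The hg19 windows and the longer form were chosen after the values were seen, so their shares are not read as an excess in the members. Of TXNRD1, OSGIN1, HMOX1 and NQO1, only TXNRD1 was among the members with the core in the RefSeq windows. For HMOX1 the core was not found in the 1000 bases upstream either. A match is a description of letters, and among members that held the core were some with high and some with near-unchanged ratios.

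Across the 33 members, 4 stood apart upward in the metformin library and most of the others lay near their control level. TXNRD1, OSGIN1, HMOX1 and NQO1 were higher by 1.81-fold to 2.38-fold, and 25 of the 30 measured members lay within 1.3-fold of control. Differences are given as log2(TPM + 1) in metformin minus the same in control. Over all measured genes the 10th to 90th percentile of the difference ran from -0.51 to 0.41. Their share within 1.3-fold is not given here, so nearness to control is not read as particular to the members. By this difference 2 of the 30 (TXNRD1 and OSGIN1, 6.67%) were higher by 2-fold or more, where 1.51% of all measured genes were. At 1.5-fold, 4 of the 30 were higher (13.3%), beside 5.4% of all measured genes. No member was lower by 1.5-fold or by 2-fold on this scale, beside 7.03% and 1.24% of all measured genes. Above 0 lay 22 of the 30 (73.3%), beside 40.3% of all measured genes, and 8 lay below 0, beside 59.7% of all measured genes. With the libraries centred on the median of the 8889 genes at 10 TPM or more in both, a shift of 0.09, 26 of the 30 lay above 0, beside 50.9% of all measured genes. With a trimmed mean over the measured genes it was also 26, beside 50.8%. The members' median was 0.10, beside -0.08 over all genes. Without the 4 highest the median of the remaining 26 was 0.09. The counting interval of the ratio lay above 1 for 17 members, included 1 for 8 and lay below 1 for 5. The same split over all measured genes is not given here, so these counts are not read as particular to the members.

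**Figure D1:**
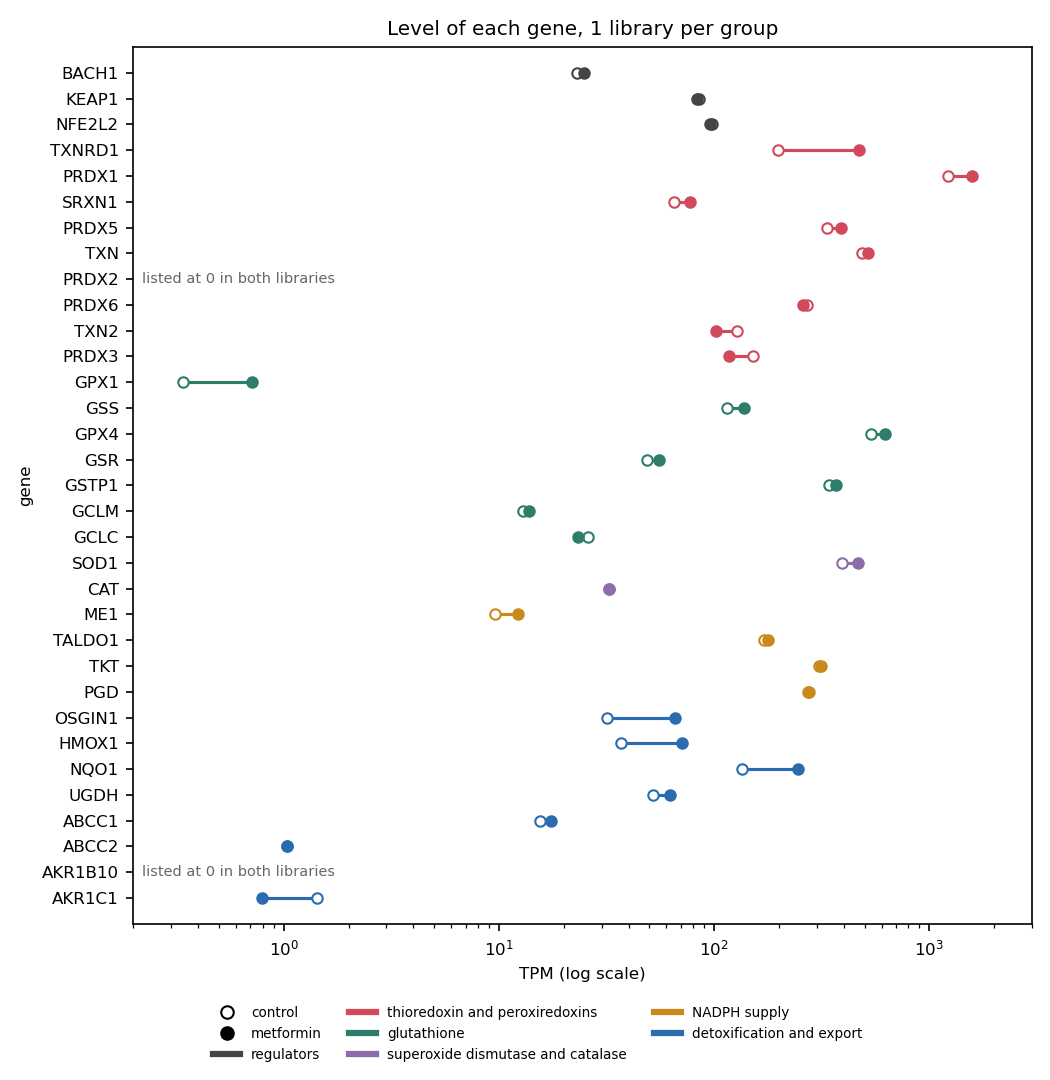
TPM of each of the 33 members on a log axis, with control as open and metformin as filled circles (1 library each), coloured by role. TXNRD1, OSGIN1, HMOX1 and NQO1 have the widest gaps among genes above 10 TPM, PRDX2 and AKR1B10 are listed at 0, and GPX1 is below 1 TPM in both libraries.

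The regulators were at nearly the same level in both libraries. NFE2L2, which encodes NRF2, had 98.2 TPM in control, against 95.5 with metformin, a ratio of 0.972 (0.925 to 1.02). KEAP1, the adaptor that hands NRF2 to the ubiquitin ligase, had 85.1 and 83.6 TPM, a ratio of 0.982 (0.931 to 1.03). Both intervals included 1, and KEAP1 had 0.866 of the TPM of NFE2L2 in control and 0.875 in metformin. BACH1, the repressor, had 23.1 and 24.8 TPM, a ratio of 1.07 (1.002 to 1.15). Exons of NFE2L2 overlap those of HNRNPA3 and AGPS on the other strand. Of the 33 members, 8 overlap exons of another gene on the other strand and 6 on the same strand, and the use of strand in counting was not given in the sources used here, so that reads of such pairs cannot be told apart.

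The thioredoxin system moves electrons from NADPH through thioredoxin reductase to thioredoxin, and from there to the peroxiredoxins, which reduce peroxides. TXNRD1, the cytosolic thioredoxin reductase and a selenoprotein, had 199 TPM in control, against 472 with metformin, higher by 2.38-fold (2.32 to 2.43). It lies on chromosome 12 at 104609557 to 104744085 of hg19. Its difference of 1.24 was the highest of the members and ranked 108 from the top among the 14078 measured genes. Of the 1809 genes with 100 TPM or more in control, 8 were higher by 2-fold or more, and TXNRD1 was among them. The estimated read pairs behind these levels were 9346 and 25113.

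Its substrate lay nearer to control. TXN, cytosolic thioredoxin, had 487 and 518 TPM, a ratio of 1.06 (1.02 to 1.11). The TPM of TXNRD1 was 0.409 of that of TXN in control and 0.912 in metformin. TXN2, the mitochondrial thioredoxin, stood at 128 and 103 TPM, a ratio of 0.799 (0.750 to 0.850). SRXN1, sulfiredoxin, which restores overoxidised peroxiredoxins, had 65.3 and 76.9 TPM, a ratio of 1.18 (1.11 to 1.25).

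Among the peroxiredoxins the cytosolic PRDX1 was the most abundant member of all, at 1228 TPM in control and 1576 in metformin, higher by 1.28-fold (1.26 to 1.31). PRDX3, the mitochondrial peroxiredoxin, was on the other side of control, at 151 and 117 TPM, a ratio of 0.774 (0.734 to 0.817). PRDX5, found in several compartments, was listed at 333 and 387 TPM (ratio 1.16), and PRDX6, which uses glutathione as reductant, at 271 and 258 TPM (ratio 0.953). TXN2 and PRDX3 were thus the lowest of this branch. PRDX2 was listed at 0 TPM in both libraries. S100A6, which many cell lines express and which was chosen after its values were seen, was likewise listed at 0 in both, so a 0 in these tables is not read as absence of the transcript.

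In the glutathione branch the differences were small. GCLC and GCLM encode the catalytic and the modifier subunit of glutamate-cysteine ligase, the rate-limiting step of glutathione synthesis and a known NRF2 target. GCLC had 26 TPM in control, against 23.3 with metformin, a ratio of 0.894 (0.825 to 0.969). GCLM had 12.9 and 13.8 TPM, a ratio of 1.06 (0.965 to 1.17). The TPM of GCLC was 2.01 times that of GCLM in control and 1.69 times in metformin. Neither subunit was near the ratios of TXNRD1, OSGIN1, HMOX1 and NQO1.

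GSS, glutathione synthetase, which adds glycine to complete the tripeptide, had 115 and 137 TPM, a ratio of 1.19 (1.13 to 1.25). GSR, glutathione reductase, which regenerates glutathione with NADPH, had 48.5 and 55.7 TPM, a ratio of 1.15 (1.08 to 1.22). GPX4, a selenoprotein that reduces lipid hydroperoxides and protects from ferroptosis, had 536 and 619 TPM, a ratio of 1.16 (1.12 to 1.20). GSTP1, a glutathione S-transferase, had 343 and 367 TPM, a ratio of 1.07 (1.02 to 1.12). These 4 lay above control by less than 1.2-fold. GPX1, the cytosolic glutathione peroxidase, was listed at 0.339 and 0.708 TPM and was not measured by the minimum. Its gene lies on the minus strand, as does RHOA, and starts 535 bases after the end of RHOA. RHOA was listed at 629 and 1476 TPM (chosen after its values were seen). A GENCODE gene model without a symbol overlaps the exons of GPX1 and RHOA on the same strand. The part of this overlap in the level of GPX1 was not tested.

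SOD1, the copper and zinc superoxide dismutase, had 393 TPM in control, against 468 with metformin, a ratio of 1.19 (1.14 to 1.24). CAT, catalase of the peroxisome, had 32.3 and 32.6 TPM, a ratio of 1.01 (0.922 to 1.10).

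The NADPH genes of the list were near control. PGD, 6-phosphogluconate dehydrogenase of the oxidative pentose phosphate pathway, had 277 and 273 TPM, a ratio of 0.986 (0.956 to 1.02). TKT and TALDO1, transketolase and transaldolase of the non-oxidative branch, were listed at 306 and 313 TPM (ratio 1.02) and at 171 and 177 TPM (ratio 1.04). All 3 intervals included 1. ME1, the cytosolic malic enzyme, had 9.59 and 12.3 TPM, a ratio of 1.28 (1.12 to 1.46), the widest interval of this branch.

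**Figure D2:**
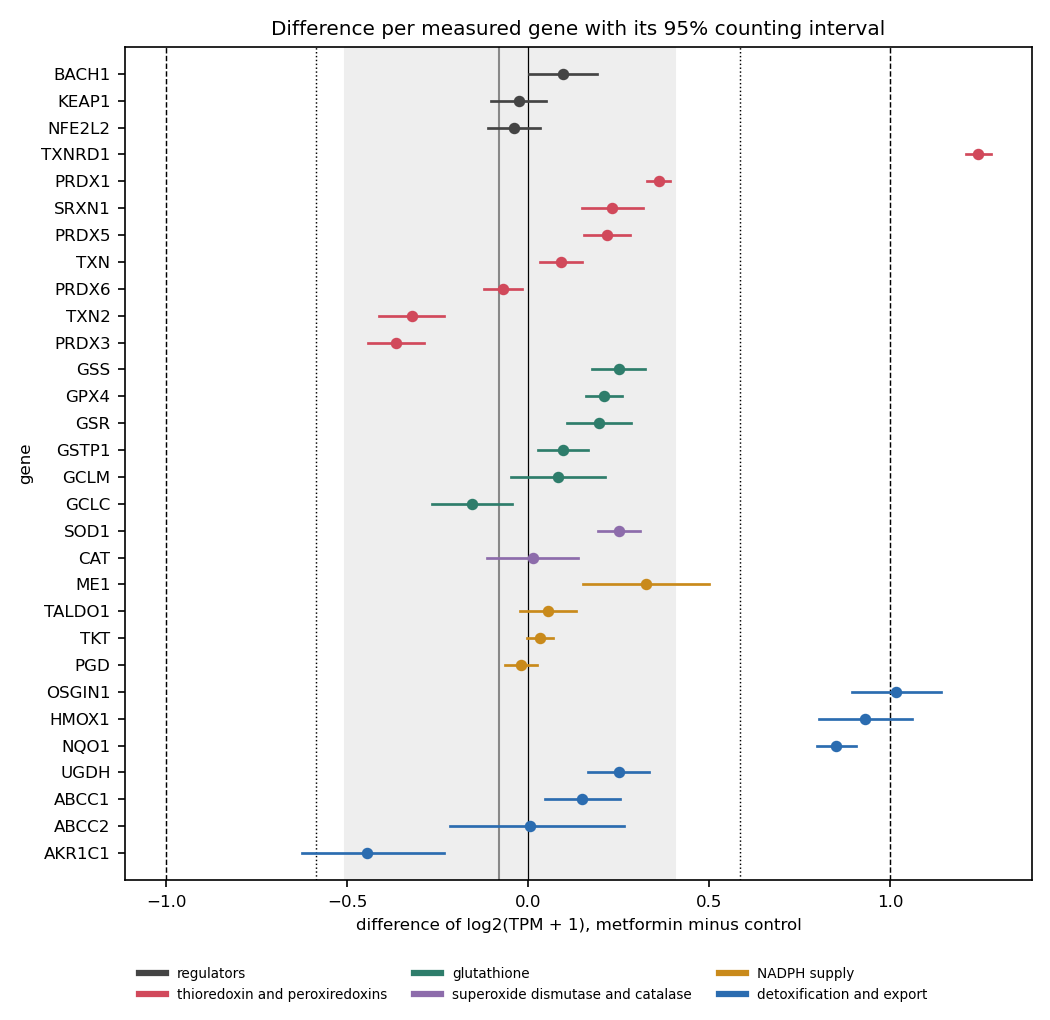
Difference in log2(TPM + 1) between metformin and control for the 30 measured members, with bars for the 95% counting interval; dotted lines mark 1.5-fold, dashed lines 2-fold, the grey line the median of all measured genes (-0.08) and the grey band their 10th to 90th percentile (-0.51 to 0.41). TXNRD1, OSGIN1, HMOX1 and NQO1 lie beyond the 1.5-fold line, and no bar of another member reaches that line on the upper side.

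Detoxification and export held 3 of the 4 highest members and also the lowest. OSGIN1, an oxidative stress-induced growth inhibitor, had 31.9 TPM in control, against 65.7 with metformin, higher by 2.06-fold (1.89 to 2.24). Its difference of 1.02 was close to the 2-fold line and was 0.86 after removal of the trend with GC content and length. Its exons overlap those of MLYCD on the same strand, which was listed at 13.5 and 20.5 TPM and was chosen after its values were seen. HMOX1, heme oxygenase, which opens heme to biliverdin, iron and carbon monoxide, had 36.9 and 71.2 TPM, higher by 1.93-fold (1.77 to 2.12). HMOX1 is repressed by BACH1 and induced by NRF2 and other stress factors.

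NQO1, a quinone reductase and a widely used readout of NRF2 activity, had 135 and 245 TPM, higher by 1.81-fold (1.74 to 1.88). OSGIN1 and NQO1 lie on chromosome 16, at 83986827 to 83999937 and at 69743304 to 69760571 of hg19, and HMOX1 on chromosome 22 at 35777060 to 35790207. HMOX1 and NQO1 were below the 2-fold line, at differences of 0.93 and 0.85 and at ranks 255 and 330 from the top of all measured genes, and OSGIN1 was at rank 201.

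UGDH, which makes UDP-glucuronic acid for conjugation, had 52.0 and 62.1 TPM, a ratio of 1.19 (1.12 to 1.27). ABCC1, an exporter of glutathione conjugates, had 15.6 and 17.4 TPM, a ratio of 1.12 (1.04 to 1.20). Its relative ABCC2 was at the edge of the minimum with 1.03 and 1.04 TPM. AKR1C1, an aldo-keto reductase and a known NRF2 target, had 1.43 TPM in control, against 0.789 with metformin, a ratio of 0.550 (0.404 to 0.747), and counted as measured through the control library alone. It shares much of its sequence with AKR1C2, listed at 1.41 and 2.14 TPM, so its value is uncertain (AKR1C2 was chosen after its values were seen). AKR1B10, a further aldo-keto reductase, was listed at 0 TPM in both libraries. AKR1C1 and ABCC2 were thus near 1 TPM, while NQO1 was above 100 in both libraries.

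**Figure D3:**
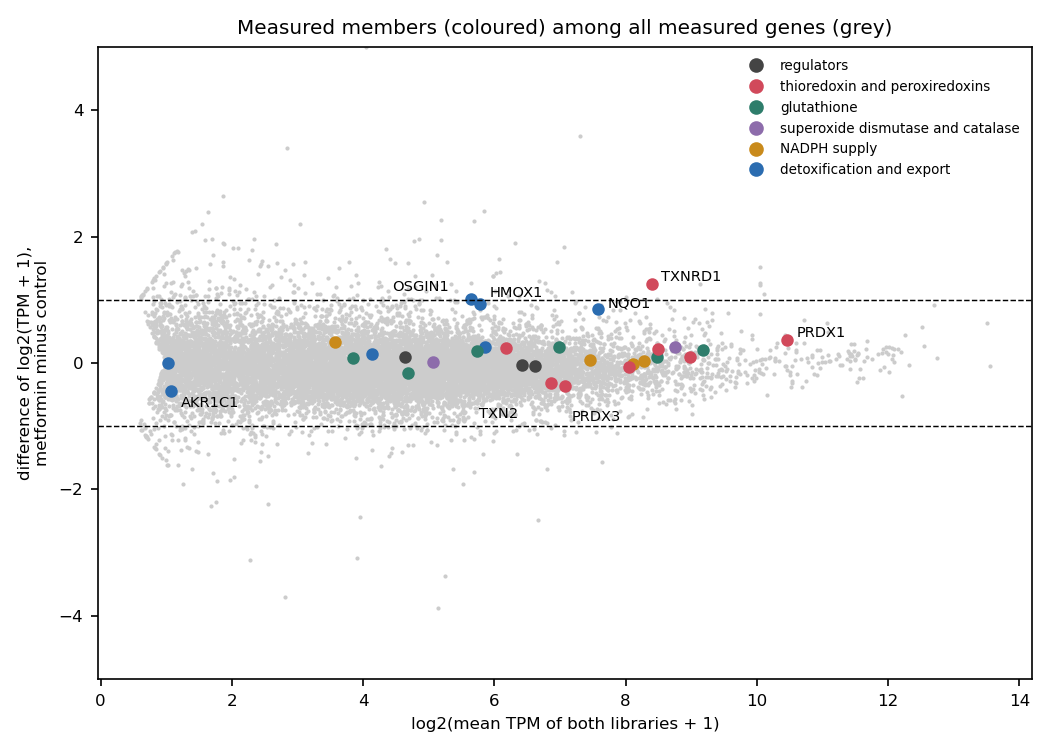
Difference in log2(TPM + 1) between metformin and control against log2 of the mean TPM of both libraries plus 1, for all 14078 measured genes (grey; 2 lie outside the axis, which ends at 5 in either direction) and the 30 measured members (coloured by role); dashed lines mark 2-fold. TXNRD1 lies above the upper line at a level where few grey points do, and PRDX1 lies at the right.

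Summed over all members, the TPM was 5612 in control and 6668 in metformin, which was 0.561% and 0.667% of all transcripts and a ratio of 1.19. PRDX1 alone accounted for 349 TPM of this gain of 1056, TXNRD1 for 274, and TXNRD1, OSGIN1, HMOX1 and NQO1 together for 42.7% of it. By role, the summed TPM had a ratio of 1.69 in detoxification and export, 1.23 in the thioredoxin branch, 1.18 for SOD1 and CAT, 1.13 in the glutathione branch, 1.02 in NADPH supply and 0.987 in the regulators.

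The difference of a gene went with the GC content of its transcript over all genes, and its median ran from -0.27 among the 10% of genes poorest in GC to 0.09 among the 10% richest in it. TXNRD1 and NQO1 had a GC content of 43.8% each and HMOX1 and OSGIN1 of 57.7% and 64.7%. With the trend with GC content and length removed, the differences of TXNRD1, NQO1, OSGIN1 and HMOX1 were 1.33, 0.94, 0.86 and 0.84, so that all 4 stayed above 1.5-fold and TXNRD1 alone above 2-fold. Other members moved as well. TXN went from 0.09 to 0.32, GCLM from 0.08 to 0.31, BACH1 from 0.10 to 0.29, UGDH from 0.25 to 0.43 and ME1 from 0.33 to 0.51. GPX4 went the other way, from 0.21 to 0.06, as did PRDX5, from 0.22 to 0.09, and PRDX3 came nearer to 0, from -0.37 to -0.21. The members' median was then 0.08, beside -0.06 over all measured genes.

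**Figure D4:**
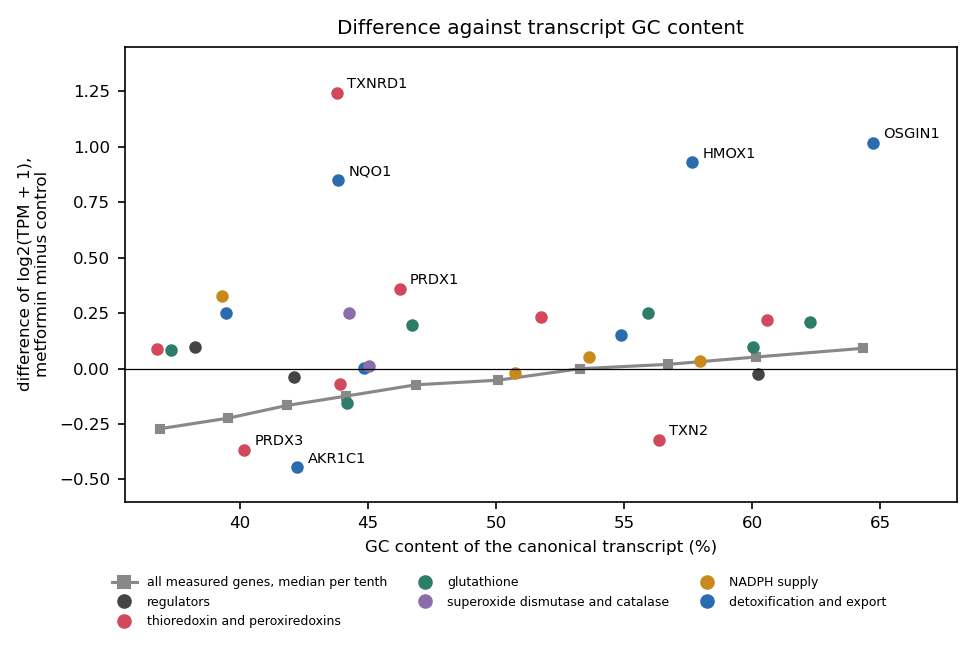
Difference in log2(TPM + 1) between metformin and control against the GC content of the canonical transcript for the 30 measured members (circles, coloured by role) and the median of all measured genes in 10 groups of equal size by GC content (grey squares). TXNRD1 and NQO1 lie at 43.8% GC, where the grey line is below 0, and HMOX1 and OSGIN1 at 57.7% and 64.7%, where it is above 0.

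Other genes of the same system were taken from 7 lists with 131 genes besides the members, of which 118 were measured. These lists too were chosen with earlier results of these data known, so their shares and medians are descriptions only. Their median difference was 0.10, 70 lay above 0, 12 were higher and 5 lower by 1.5-fold or more, and 2 were higher and 1 lower by 2-fold or more. Of all measured genes, 40.3% lay above 0, 5.4% were higher and 7.03% lower by 1.5-fold or more, and 1.51% were higher and 1.24% lower by 2-fold or more, so that the share of these genes at 2-fold was near that of all genes. With median centring, 19 were higher and 3 lower by 1.5-fold or more, beside 7.33% and 4.77% of all measured genes, and with trimmed mean scaling also 19 and 3, beside 7.31% and 4.81%. The list of other NRF2 targets had the highest median of the 7, 0.33 over 25 measured genes, with 19 of the 25 above 0, beside 40.3% of all measured genes, 4 higher by 1.5-fold or more and none lower. FTL, the ferritin light chain that stores iron, had 1681 and 2607 TPM, higher by 1.55-fold (1.52 to 1.58). TRIM16 and TRIM16L were listed at 11.2 and 18.8 TPM and at 9.62 and 20.3 TPM, higher by 1.69-fold and 2.11-fold, but TRIM16L is a partial copy of TRIM16, with which it can exchange reads. At the lower end were the exporters ABCC5 and ABCC4, with ratios of 0.802 and 0.818.

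Partners of NRF2 and factors of its turnover had a median of 0.15, with 8 of 14 above 0, beside 40.3% of all measured genes. SESN2, sestrin 2, a stress-induced protein that restrains mTORC1, had 26.8 and 54.7 TPM, higher by 2.04-fold (1.90 to 2.19). SQSTM1, which encodes p62, an autophagy receptor that binds KEAP1, had 494 and 675 TPM, higher by 1.37-fold (1.34 to 1.39), and MAFF, a small MAF partner, was higher by 1.38-fold (1.21 to 1.58). CUL3, the scaffold of the ligase that KEAP1 serves, stood at 0.760 of control (0.729 to 0.793), and PGAM5, a mitochondrial phosphatase bound by KEAP1, at 0.732.

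In the list of further glutathione genes 16 of 29 measured genes lay above 0, beside 40.3% of all measured genes, and the median was 0.07. Higher were OPLAH, 5-oxoprolinase, by 1.90-fold (1.68 to 2.17), and CHAC1, which degrades glutathione and is a known ATF4 target, by 1.60-fold (1.44 to 1.79). Lower were GGCT, gamma-glutamylcyclotransferase, at 0.597 of control (0.557 to 0.641), and CHAC2 at 0.621 (0.529 to 0.726). GSTM1 had 2.08 TPM in control, against 0 with metformin, but it belongs to a family of close copies, its exons overlap those of GSTM2 on the same strand, and an estimate of 0 gives no fold.

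Further NADPH sources had 12 of 18 measured genes above 0, beside 40.3% of all measured genes, and a median of 0.26. H6PD and PGLS, which act in the oxidative pentose phosphate pathway of the endoplasmic reticulum and of the cytosol, were higher by 1.66-fold (1.56 to 1.76) and 1.60-fold (1.501 to 1.712). RPIA, ribose-5-phosphate isomerase, and MTHFD2L stood at 0.707 and 0.695 of control. PGD, the enzyme after PGLS in the pathway, was at 0.986 of control.

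Further thioredoxin and methionine sulfoxide reductase genes had the lowest median of the 7 lists, -0.23. Above 0 lay 5 of the 13 measured genes, beside 40.3% of all measured genes. TXNRD3, a thioredoxin-glutathione reductase, was higher by 1.64-fold (1.41 to 1.89) at 8.20 and 13.4 TPM, MSRA by 1.20-fold, and TXNL1 and PRDX4 stood at 0.719 and 0.749 of control. Of the 5 measured genes of superoxide and peroxide handling, CCS, the copper chaperone of SOD1, was higher by 1.48-fold (1.2995 to 1.7023) and CYBA by 1.28-fold, and SOD2 and OXR1 stood at 0.901 and 0.862. Genes of selenoprotein synthesis together with further selenoproteins had a median of 0.02, with 9 of 16 above 0, beside 40.3% of all measured genes. Among them SELENOF stood at 1.67-fold (1.53 to 1.83), SELENOM at 1.24-fold, SELENOT at 0.790 and SELENOH at 0.755. Without the GC and length trend the difference of SELENOT went from -0.34 to -0.03, that of OXR1 from -0.21 to -0.01, that of SELENOM from 0.31 to 0.14 and that of CYBA from 0.35 to 0.15. Those of CUL3, CHAC2, TXNL1, MTHFD2L and ABCC4 went from -0.39 to -0.18, from -0.65 to -0.40, from -0.47 to -0.28, from -0.49 to -0.24 and from -0.28 to -0.19, and that of SELENOF from 0.73 to 1.01.

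**Figure D5:**
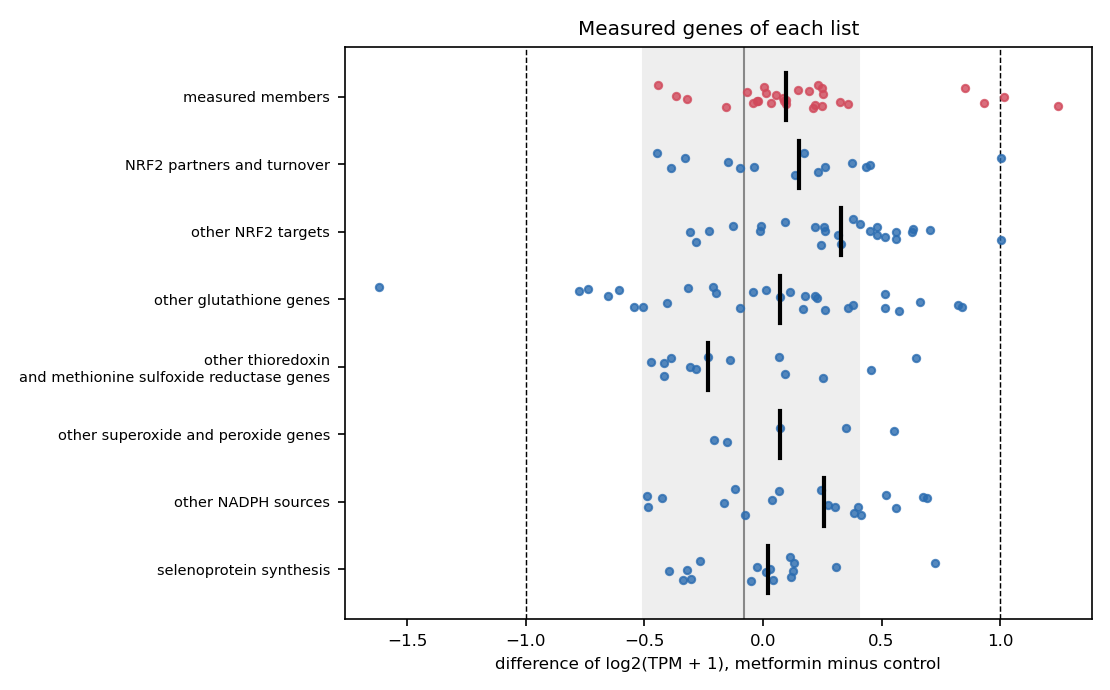
Difference in log2(TPM + 1) between metformin and control of each measured gene (circles) in the members and in the 7 lists of other genes, with the median of each as a black bar; dashed lines mark 2-fold, the grey line the median of all measured genes and the grey band their 10th to 90th percentile. The medians run from -0.23 in the thioredoxin and methionine sulfoxide reductase list to 0.33 in the list of other NRF2 targets.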

How the data were processed

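RNA libraries of H1299 cells were made with a stranded mRNA kit and sequenced on a NovaSeq instrument, per the labels' protocols. Bowtie2 was the aligner to hg19, per the labels' protocols; per the submitters' processing notes, Trimmomatic 0.38 and HISAT2 were used. Which program estimated abundance was not given in the sources used here. TPM and FPKM were computed and deposited by the authors per gene, with coverage deposited as mean read depth. Symbols were matched to NCBI gene IDs through a RefSeq table (GRCh38, names only; 27559 IDs matched, 126 not). Rows of a repeated ID were summed.

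The difference of log2(TPM + 1) was computed with a pseudocount of 1, which understates differences of low genes. Read pairs per gene were estimated from FPKM, the ratio of coverage to FPKM, 202 bases a pair (the base total found most often among short genes) and the canonical GENCODE transcript length on GRCh37; where another isoform is expressed the interval is approximate. TPM is relative, so abundant transcripts lower the rest. Python 3.11.15 was used, and the steps were tested on simulated data. The members and lists were chosen with earlier results of these data known. All members are named; of the other lists, genes past 2-fold and the 2 highest and 2 lowest of those at 5 TPM or more. Alternatives were pseudocounts, FPKM, scaling, minimum level, the GC and length trend, repeated IDs and, chosen after seeing the data, the plain ratio and the hg19 upstream windows.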

Additional observations from a re-analysis of the deposited data

How the results depend on the processing

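No paired analysis was possible because each group had 1 library. TXNRD1 stayed at a difference of 1.23 to 1.33 under all 10 alternatives, OSGIN1 at 0.86 to 1.11 (8 of 10 at 1 or more), HMOX1 at 0.84 to 1.02 (2 of 10) and NQO1 at 0.83 to 0.94 (0 of 10). The sign changed under at least 1 alternative for 7 members near 0: GSTP1, KEAP1, NFE2L2, PGD, PRDX6, TALDO1 and TKT. The number of members higher by 2-fold was 1 in place of 2 with a pseudocount of 5 and without the GC and length trend. With either scaling it was 3 (with HMOX1), beside 1.92% of all measured genes under the same scaling. The number lower by 1.5-fold was 1 in place of 0 (AKR1C1) with a pseudocount of 0.1 and on the plain ratio. The ratio of summed TPM was 1.22 with FPKM, and 1.26 with median centring and with trimmed mean scaling. Among the other pathway genes, the number higher by 1.5-fold, 12, was 7 with a pseudocount of 5 and 19 with either scaling. The number lower by 1.5-fold, 5, was 1 with a pseudocount of 5 or with FPKM, and 3 with either scaling or a minimum of 5 TPM. The number higher by 2-fold, 2, was 0 with a pseudocount of 5, 1 with FPKM, 1 without the trend (SELENOF) and 3 with a pseudocount of 0.1 or on the plain ratio, and the number lower by 2-fold, 1, was 2 with a pseudocount of 0.1 and 0 with a pseudocount of 5, FPKM or a minimum of 5 TPM. A pseudocount, a trend or a missing minimum has no bearing on a sum of TPM and was not run for it. Apart from scaling, the shares of all measured genes under these alternatives are not given here. The counts are therefore not read as particular to the members or lists. The causes of these moves were not tested, beyond the fewer low genes that enter under a higher minimum and the uniform shift that scaling adds. Depth limits AKR1C1, ABCC2 and GPX1, which had few reads.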

Other observations

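Genes next to HMOX1 in heme and iron handling, chosen after their values were seen, lay above or at control. BLVRA, biliverdin reductase A, which acts on the product of HMOX1, had 49.2 and 73.1 TPM, a ratio of 1.48 (1.35 to 1.64), and BLVRB had 215 and 213 TPM, a ratio of 0.991 (0.933 to 1.05). FTH1, the ferritin heavy chain, had 495 and 691 TPM, a ratio of 1.40 (1.36 to 1.44), though ferritin genes have many processed copies that can take up reads.

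The cystine importer that feeds glutathione synthesis has the subunits SLC7A11 and SLC3A2, both known ATF4 targets as well, and was chosen in the same way. SLC7A11 had 9.03 and 13.3 TPM, a ratio of 1.48 (1.37 to 1.59), and SLC3A2 had 184 and 239 TPM, a ratio of 1.302 (1.25 to 1.35). TXNIP, a thioredoxin-binding protein also chosen after its values were seen, had 0.0277 TPM in control, and with metformin it was listed at 0. The control value rests on an estimated 0.976 read pairs. TXNIP was not measured by the minimum, so its values are not read as a difference. MMACHC, likewise chosen, whose exons overlap PRDX1 on the other strand, was listed at 16.5 and 9.47 TPM, far below PRDX1.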
